A study of Caenorhabditis elegans with 30 samples.

Results

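The insulin-like peptide genes of C. elegans are described here as the 38 genes whose WormBase name is ins- followed by a number, together with daf-28, chosen by name alone. These 39 genes stood among 19988 genes to which the deposited transcript counts could be assigned. The data are 30 RNA-seq libraries of 10 groups, 3 libraries a group, made from whole L4 larvae grown at 20 °C on E. coli OP50 to learn how animals answer an extract of the oomycete Myzocytiopsis humicola and what the receptor tyrosine kinase OLD-1 and the pseudokinase FLOR-1 contribute. The extract experiment held flor-1(icb93) mutants with and without extract, old-1(ok1273) mutants with and without extract, and wild-type N2 with and without extract. In the first overexpression experiment, animals with the extrachromosomal array icbEx308, which makes OLD-1::GFP from the promoter of old-1 beside a bus-1p::GFP marker, in a strain labelled icbIs4, were set against non-transgenic animals of the same population labelled N2(icbIs5). In the second, animals with the array icbEX359, in which the epidermal dpy-7 promoter drives old-1 beside a hygromycin resistance gene, were set against hygromycin control animals with the resistance gene alone (icbEx360). Extrachromosomal arrays are lost from some cells, so transgenic animals are mosaics. The strain list of the study gives flor-1(icb93) only with the integrated reporter icbIs5. The labels do not say whether the 3 libraries of a group came from separate cultures, and the p-values measure only the spread between these libraries.

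Insulin-like peptides are small secreted proteins made by neurons, intestine, epidermis and other tissues, and cut from larger precursors by prohormone convertases. They act through the insulin receptor DAF-2. Agonists start a kinase cascade from DAF-2 through the phosphoinositide 3-kinase AGE-1 and the AKT kinases that keeps the FOXO transcription factor DAF-16 out of the nucleus, and antagonists oppose it. In the worm the pathway is known for its part in dauer arrest, growth of the germ line, lifespan and resistance to pathogens.

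The targeted genes were measured first. old-1 stood at 26.9 to 39.2 TPM in old-1p::old-1 and 29.2 to 46.8 TPM in dpy-7p::old-1, against 0.325 to 0.542 TPM and 0.577 to 0.878 TPM in their controls, and at 0.312 to 0.702 TPM in the 6 old-1 libraries, against 0.88 to 2.03 TPM in the 6 N2 libraries. The labels name no old-1 mutation in old-1p::old-1 or its non-transgenic controls, while the study also describes icbEx308 in old-1(ok1273), and old-1 in the controls lay within the range of the old-1 mutants and below every N2 library. The hygromycin control, which the study describes as wild type with the resistance gene, was also below every N2 library and overlapped the range of the mutants. Untreated flor-1 reached down to 0.719 TPM. Whether the non-transgenic controls of old-1p::old-1 carry an old-1 mutation is not settled by the sources used here. Each comparison with them holds for these animals as labelled. flor-1 stood at 11 to 14.6 TPM in the 6 flor-1 libraries, against 15.2 to 33.4 TPM in N2. Depth ran from 19214839 to 38956390 counts per library. Levels are given as TPM, a measure scaled for transcript length and library depth. Tests were run by edgeR on the counts of each gene, and a gene is called where p was under 0.01 and the Benjamini-Hochberg adjusted p over all genes tested was under 0.1. Values in parentheses after TPM or counts are log2 fold changes ± SE with that adjusted p. This SE is an approximation, the size of the log2 fold change divided by the square root of the F statistic of its test. Markers of neurons, intestine, epidermis and body wall muscle were present in all 30 libraries, at mean log2 CPM (counts scaled for library depth) of 4.31 to 5.53, 6.03 to 7.05, 5.28 to 7.57 and 8.94 to 10.6. The libraries were less alike in 15 yolk and oocyte genes, whose expression begins toward adulthood. Their mean log2 CPM was 0.94 in library A of untreated N2 but 5.41 in B and 5.99 in C, 0.71 to 0.997 in N2 with extract, 0.32 to 1.25 in old-1 and 6.75 to 7.01 in flor-1. The overexpression libraries, though labelled L4, were higher than these in all but 1 case. The level was 7.5, 10.3 and 10.6 in old-1p::old-1, against 8.9, 8.765 and 5.36 in the non-transgenic controls. It was 9.76 to 10.3 in dpy-7p::old-1, against 9.003 to 9.39 in the hygromycin control. Effective lengths, the number of positions at which a fragment can start, also differed, lying 153.4 to 164 bases under the transcript lengths in the 6 flor-1 libraries and 236.8 to 268.1 bases under them in the other 24. In these whole-animal libraries fewer cells of a type and less RNA per cell cannot be told apart.

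By the Ensembl annotation of WBcel235, 15 of the 39 genes lie on chromosome II, 10 on I, 5 on III, 4 on IV, 3 on V and 2 on X. One cluster on chromosome I, between positions 14012369 and 14037777, holds the 7 genes ins-24 to ins-30. Another on chromosome II, between 5988524 and 6011321, holds ins-2 to ins-6 and ins-20. The genes are short. Their longest transcripts measured 284 to 955 bases, with a median of 434, against a median of 1296 bases over all transcripts. ins-10, ins-13, ins-34 and ins-36 overlap the protein-coding genes vps-39, acdh-2, nkcc-1 and Y53H1A.7. Use of strand in the counting is not stated, so reads of these 4 genes and their neighbours may not be fully separated.

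Detection divided the family into 3 sets. In 23 genes at least 1 library of every group held 10 or more counts. Another 9 genes (ins-2, ins-8, ins-13, ins-15, ins-16, ins-19, ins-21, ins-36 and ins-39) reached 10 counts in no library, and 7 (ins-14, ins-20, ins-23, ins-25, ins-31, ins-32 and ins-34) reached it in some groups and not in others. At a floor of 3 counts over the 3 libraries of a group, ins-13 was at the floor in 9 of 10 groups, ins-8 and ins-19 in 8, ins-15 in 6, and ins-2 and ins-16 in 5. ins-13, the gene with the fewest counts, had 16 counts over all 30 libraries. Expression of these genes was not detectable at this depth or was too low to compare. Of the 39 genes, 31 passed the low-count filter of at least 1 fit, 19 were called in at least 1 comparison, and 12 were tested and never called: ins-3, ins-6, ins-9, ins-10, ins-11, ins-22, ins-23, ins-24, ins-25, ins-28, ins-32 and ins-39. Among these are ins-6, an agonist that acts in the dauer decision, and ins-3, an agonist that promotes germ cell proliferation in larvae. Calls of alternative fits are left out of these counts. With effective length as an offset, ins-3 and ins-6 were called lower in untreated flor-1 than in untreated N2. ins-6 averaged between 8.16 and 16.2 TPM in the 10 groups, and ins-3 between 3.37 and 5.79 TPM. The others ranged from moderate to barely detected. ins-28, of the chromosome I cluster, had group means of 12.4 to 22 TPM. ins-22 had group means of 3.93 to 11.3 TPM, ins-11 of 2 to 6.66 TPM and ins-10 of 1.71 to 6.27 TPM. ins-9 ranged from 1.04 TPM in dpy-7p::old-1 to 7.17 TPM in flor-1 with extract. The group means of ins-32 (0.399 to 3.34 TPM), ins-23 (0.525 to 2.94 TPM), ins-25 (0.352 to 1.77 TPM) and ins-39 (0.0534 to 0.633 TPM) rest on few counts, with at most 20, 20, 14 and 9 in any library.

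The abundant end of the family was short. ins-27 had the highest group mean in 9 of 10 groups, between 48.4 ± 17.5 TPM in dpy-7p::old-1 and 205 ± 2.66 TPM in untreated old-1 (SD, n = 3 each). In the tenth group, the non-transgenic controls of old-1p::old-1, ins-35 averaged 219 ± 39.9975 TPM and ins-27 170.3 ± 48.7 TPM, whose difference was within their spread. The other groups had ins-35 at group means between 7.04 TPM in the hygromycin control and 104.3 TPM in old-1 with extract, so ins-35, a peptide gene of the intestine, spanned 31.1-fold between the lowest and highest group mean. ins-17 (14.5 to 21.3 TPM) spanned 1.47-fold and ins-24 (5.29 to 7.28 TPM) 1.38-fold. Summed over all 39 genes, the family reached 358 ± 84.1 TPM in old-1p::old-1 and 615 ± 143 TPM in its non-transgenic control, 244 ± 31.3 TPM in dpy-7p::old-1 and 294 ± 11.3 TPM in the hygromycin control. In the extract experiment the sums were 315 ± 21.1 TPM in flor-1 with extract and 321 ± 29.6 TPM without, 558 ± 26 TPM in old-1 with extract and 559.9 ± 9.19 TPM without, and 524 ± 3.83 TPM in N2 with extract and 401 ± 51.8 TPM without. The flor-1 sums rest in part on effective lengths, which differed in these libraries. For the ins-27 transcripts they averaged 154.7 and 159.3 bases in flor-1 and 73.5 and 77.1 bases in the other libraries. ins-27 had 444, 708 and 1003 counts in untreated flor-1, against 460, 319 and 460 counts in untreated N2. The 5 most abundant genes made up between 44% of the sum in dpy-7p::old-1 and 77.3% in the non-transgenic controls.

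**Figure D1:**
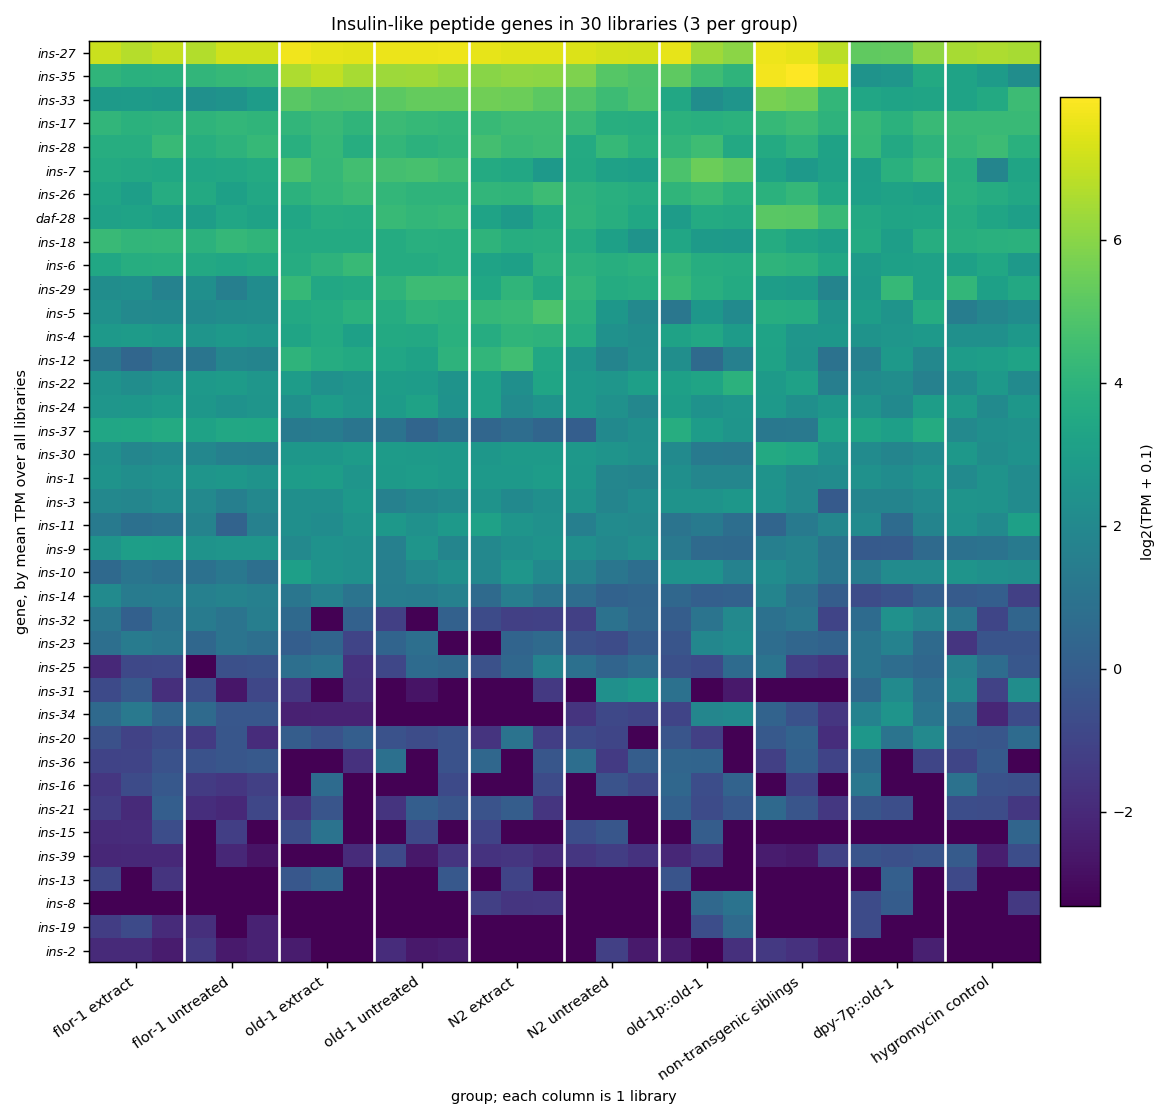
Heat map of log2(TPM + 0.1) for the 39 insulin-like peptide genes (rows, ordered by mean TPM over all libraries) in the 30 libraries (columns, 3 per group, groups separated by white lines). ins-27 and ins-35 stand at the top, and 9 genes at or near the detection floor in every group fill the dark rows at the bottom.

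**Figure D2:**
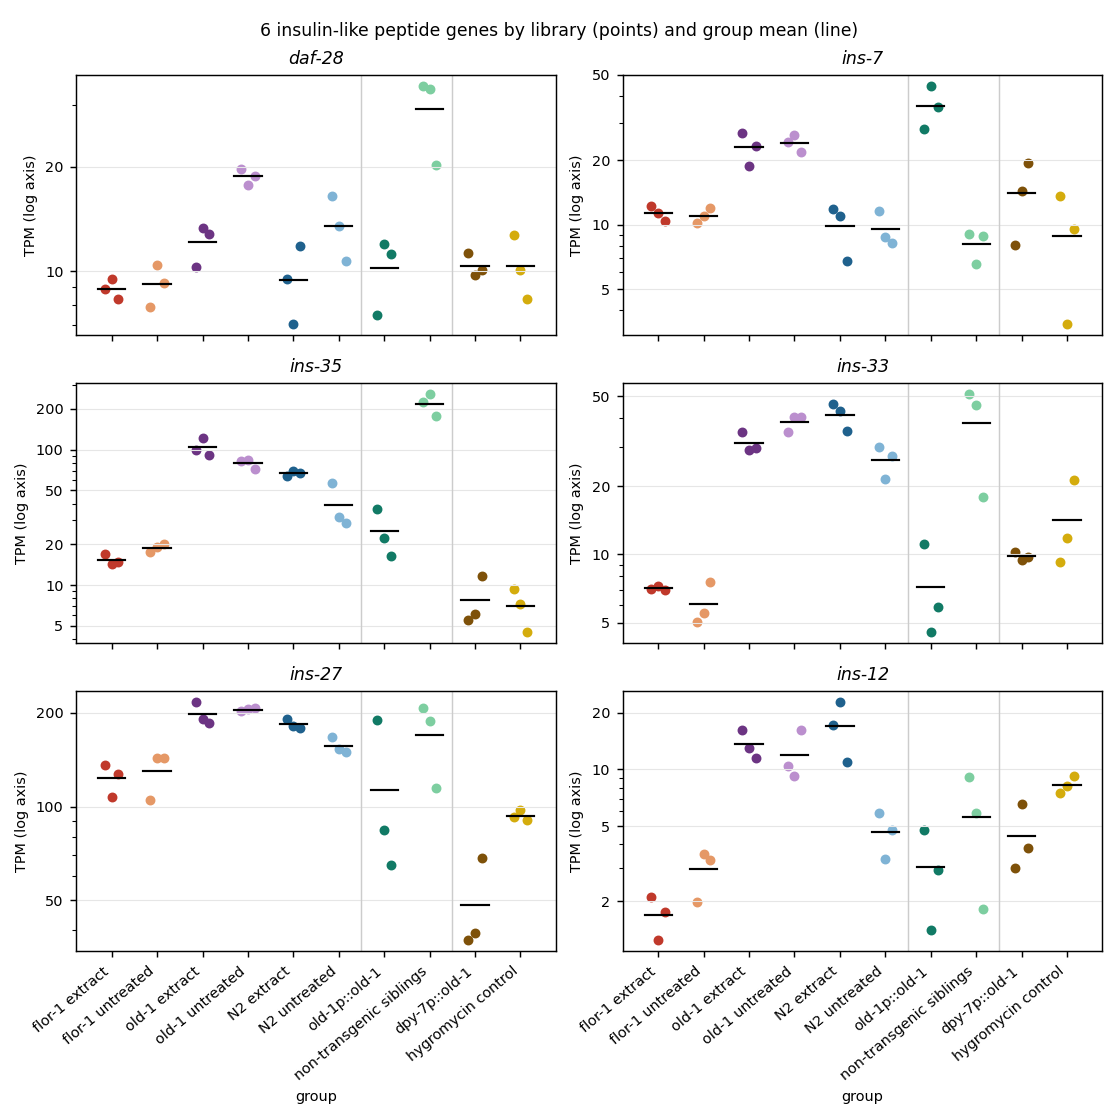
TPM on log axes of daf-28, ins-7, ins-35, ins-33, ins-27 and ins-12 in the 10 groups, 1 point a library and a line at each group mean, with grey lines between the 3 experiments. ins-7 lies at 18.8 to 26.7 TPM in the 6 old-1 libraries, above all N2 libraries, and at 28 to 44.2 TPM in old-1p::old-1, above its non-transgenic control.

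In N2, extract was followed by higher levels of 6 insulin-like peptide genes and lower levels of 4 (14.7% and 20.4% of all genes tested). The agonists ins-4 and daf-28 went opposite ways, and ins-1, an antagonist in C. elegans, was among the genes that rose. In all, 10 of the 30 members tested were called (33.3%), close to the 35% of all 16850 genes tested. The median log2 fold change of the members was 0.24, and -0.01 over all genes.

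daf-28, an agonist made in sensory neurons that opposes dauer arrest, had 9.47, 7.06 and 11.8 TPM in N2 with extract, against 16.4, 13.5 and 10.7 TPM in untreated N2. The groups overlapped in 1 library each, and the call was lower, with a log2 fold change of -0.59 ± 0.19 (SE, adjusted p = 0.0197). ins-4, an agonist that acts beside daf-28 against dauer arrest, had 12.7, 16.8 and 15.9 TPM with extract, against 12.8, 5.16 and 4.61 TPM without. It was called higher (0.95 ± 0.27, adjusted p = 0.0109), but untreated library A was above the lowest extract library and the difference lay in B and C.

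ins-33, expressed in the epidermis and known to promote germ cell proliferation in larvae, had 46.3, 43.3 and 35.2 TPM in N2 with extract, against 29.8, 21.6 and 27.2 TPM in untreated N2. All 3 extract libraries were above all 3 untreated ones, with a log2 fold change of 0.57 ± 0.14 (SE, adjusted p = 0.00466). ins-35 had 63.8, 70.1 and 66.8 TPM with extract, against 56.2, 31.8 and 28.8 TPM without (0.69 ± 0.18, adjusted p = 0.00643). Library A of untreated N2 again stood nearest to the extract libraries, without overlap. ins-1 had 6.87, 6.7 and 7.56 TPM with extract, against 6.24, 3.55 and 3.37 TPM without (0.61 ± 0.18, adjusted p = 0.0126).

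ins-12 had the largest fold change among called members with 10 or more counts in a library of each group. It had 17.1, 22.7 and 10.9 TPM in N2 with extract, against 5.89, 3.33 and 4.79 TPM in untreated N2, with no overlap and a log2 fold change of 1.73 ± 0.30 (SE, adjusted p = 0.000507). The call held in all 16 alternative fits, with log2 fold changes of 1.46 to 1.94. ins-5, of the chromosome II cluster, had 18.6, 19.4 and 27.3 TPM with extract, against 15.3, 6.32 and 3.9 TPM without (1.28 ± 0.30, adjusted p = 0.00367). Its libraries did not overlap, though untreated library A was far above B and C.

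The other 3 genes called lower were near the floor or low in untreated library A. ins-37 had 1.22, 1.55 and 1.2 TPM in N2 with extract, against 0.937, 4.06 and 4.95 TPM in untreated N2 (-1.43 ± 0.43, adjusted p = 0.0147), and untreated library A was below all 3 extract libraries. ins-31 had 0, 0 and 4 counts with extract, against 0, 59 and 107 counts without, so library A of untreated N2 again resembled the extract libraries. Against untreated library A alone the log2 fold change of ins-37 was 0.53, and for ins-31, with 0 counts in that library, no fold is given. ins-34 had no count with extract, against 2, 3 and 4 counts without, which makes it at least 2.95-fold lower at a floor of 3 counts over the group (a bound for counting error only).

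Without untreated N2 libraries B and C, which leaves 1 untreated library that is assumed to vary like the other groups, 3 members were called in N2 (ins-12 and ins-33 higher, daf-28 lower), and 2 with the yolk and oocyte level as a covariate (ins-12 higher, daf-28 lower), while 15.5% and 14.6% of all genes were called. The calls of daf-28, ins-1 and ins-4 were lost in 6 of 16 alternative fits each. Without library B alone 6 members were called, with 4937 of all 16850 genes. In a fit of only the 6 N2 libraries 1 was called, ins-12 (14.4% of all genes).

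**Figure D3:**
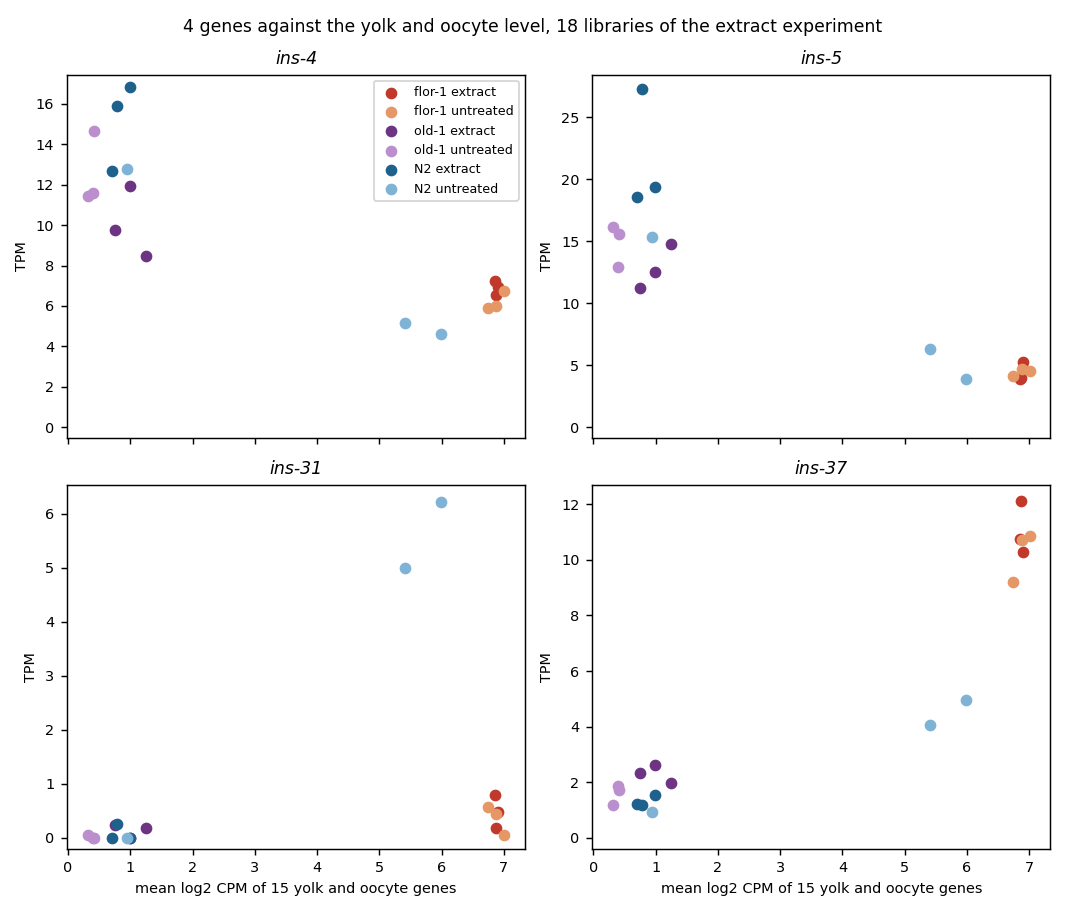
TPM of ins-4, ins-5, ins-31 and ins-37 (vertical axes) against the mean log2 CPM of 15 yolk and oocyte genes (horizontal axes) in the 18 libraries of the extract experiment, 1 point a library, coloured by group. Untreated N2 library A, at a yolk and oocyte level of 0.94, lies beside the N2 extract and old-1 libraries, and libraries B and C, at 5.41 and 5.99, lie apart from them.

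In old-1 mutants, extract was followed by lower daf-28, ins-33 and ins-29 and by no called rise (11.3% of all genes were called lower). The 3 members called of 30 (10%) compare with 24% of all genes tested, and the median log2 fold change was -0.26, against -0.01 over all genes. daf-28 had 10.3, 13.3 and 12.8 TPM in old-1 with extract, against 19.7, 17.7 and 18.8 TPM in untreated old-1. All 3 extract libraries were below all 3 untreated ones (-0.82 ± 0.18, adjusted p = 0.00341). ins-33 had 34.7, 28.9 and 29.7 TPM with extract, against 35, 40.4 and 40.4 TPM without (-0.51 ± 0.14, adjusted p = 0.0128), and its highest extract library lay just under its lowest untreated one. ins-29, of the chromosome I cluster, had 19.1, 11.1 and 11.6 TPM with extract, against 16.2, 21.7 and 21.3 TPM without (-0.75 ± 0.25, adjusted p = 0.0342), with extract library A among the untreated values. The daf-28 and ins-33 calls held in all 15 alternative fits, and that of ins-29 was lost in 6. In a fit of only the 6 old-1 libraries 5 members (and 32.5% of all genes) were called, ins-4 and ins-27 being lower as well.

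The difference of the old-1 response from the N2 response was called for 8 of the 30 members (26.7%), against 31.1% of all genes. The daf-28 response did not pass this test (-0.24 ± 0.26, adjusted p = 0.509). For ins-33 the responses had opposite signs, -0.51 in old-1 and 0.57 in N2 on the log2 scale, and the difference was called (-1.08 ± 0.20, adjusted p = 0.000947) and held in all 22 alternative fits. ins-12 had a response of 0.01 in old-1 and 1.73 in N2 (-1.73 ± 0.41, adjusted p = 0.00516 for the difference). The log2 differences were also called for ins-5 (-1.69 ± 0.42, adjusted p = 0.00731), ins-4 (-1.47 ± 0.38, adjusted p = 0.0081), ins-1 (-0.83 ± 0.25, adjusted p = 0.0177) and ins-17 (-0.65 ± 0.19, adjusted p = 0.0165). The response of ins-37 was higher in old-1 (1.78 ± 0.60, adjusted p = 0.0311), and against untreated N2 library A alone the value was -0.17. ins-34 was also called, from 3 counts in old-1 with extract and 0 in untreated old-1, against 0 in N2 with extract and 9 in untreated N2, and no fold is given. With the yolk and oocyte covariate 3 members (and 19.9% of all genes) were called, ins-33, ins-34 and ins-11, a gene of the intestine. The calls of ins-37, ins-1 and ins-17 were lost in 14, 8 and 8 of 22 fits, ins-37 also changing sign in 2. Leaving out untreated N2 library B or C, or old-1 extract library C, left 5, with 4558, 4471 and 4335 of all 16850 genes called.

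In flor-1 mutants no member was called after extract, and no gene at all (0.0% of 16850). At an unadjusted p under 0.05 stood 2 members and 644 genes, and DESeq2 called 34 genes (0.202%) and 0 members. ins-12, raised in N2, had 2.1, 1.25 and 1.75 TPM in flor-1 with extract, against 1.99, 3.55 and 3.31 TPM in untreated flor-1, a log2 fold change of -0.82 ± 0.35 (SE, adjusted p = 1). daf-28 had 8.88, 9.49 and 8.3 TPM with extract, against 7.89, 10.4 and 9.21 TPM without, and the groups overlapped.

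The difference of the flor-1 response from the N2 response was called for 6 members (20%), against 23.9% of all genes. The ins-12 difference was the firmest, a log2 fold change of -2.55 ± 0.46 (SE, adjusted p = 0.00158), and held in all 22 alternative fits. ins-35 (-1.04 ± 0.26, adjusted p = 0.0113), ins-1 (-0.85 ± 0.25, adjusted p = 0.0233) and ins-5 (-1.32 ± 0.44, adjusted p = 0.0389) were lower in the same sense, though the calls of ins-5 and ins-1 were lost in 13 and 7 of the 22 fits. ins-31 and ins-34, at or near the floor in N2 with extract, were called in the other direction, and the ins-31 counts in untreated N2 were all in libraries B and C. The daf-28 difference was not called (0.51 ± 0.26, adjusted p = 0.172). With the yolk and oocyte covariate, or without untreated N2 libraries B and C, ins-12 alone was called, with 11.8% and 12.4% of all genes. Leaving out untreated N2 library A gave 10 calls, with 6214 of all 16850 genes. Leaving out B, C or flor-1 extract library B gave 3, with 3289, 2903 and 3476 of all genes.

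**Figure D4:**
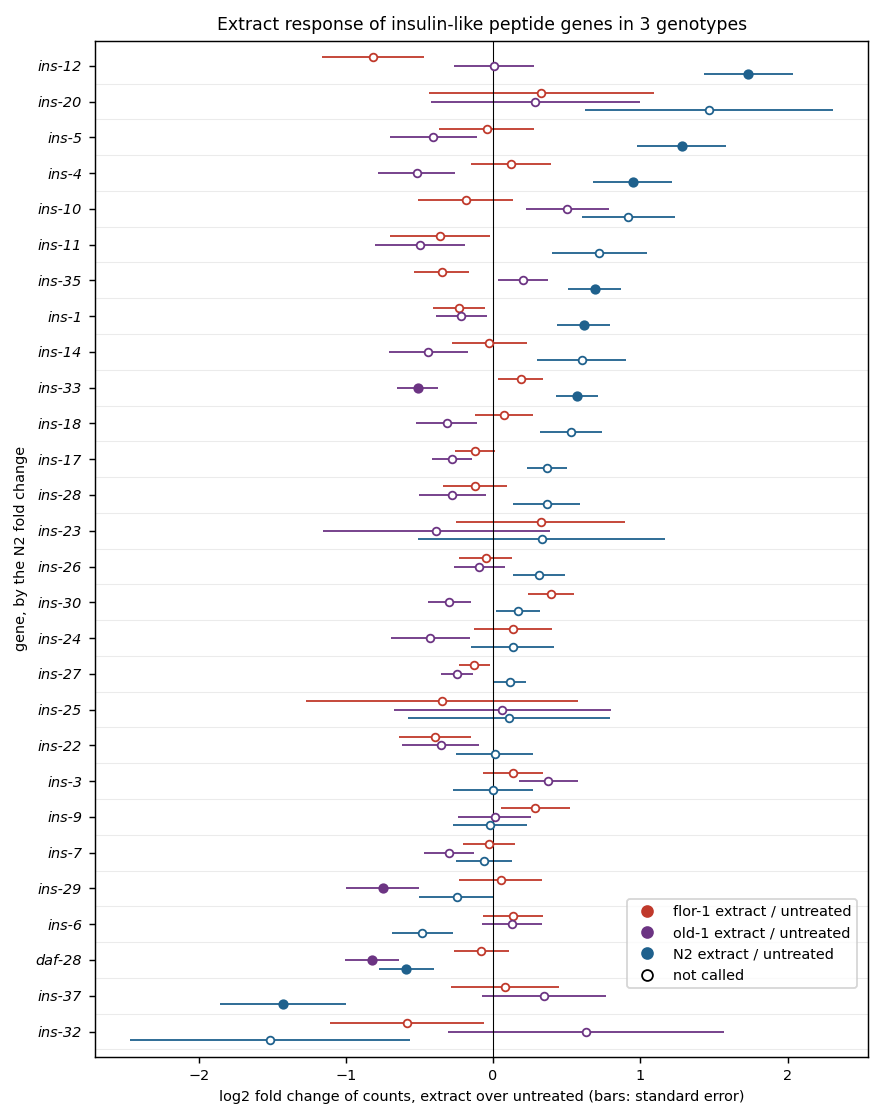
Log2 fold change of counts, extract over untreated (horizontal axis), with its approximate standard error (from the F statistic of the test) as bars, for 28 members in flor-1 (top of each row), old-1 (middle) and N2 (bottom). Filled points were called and open points were not. ins-31 and ins-34 are left out because groups at the detection floor give their fits no bound. ins-12 is called only in N2, ins-33 has opposite signs in old-1 and N2, and daf-28 is called lower in old-1 and in N2.

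Before any extract, old-1 mutants had more mRNA of 13 members than N2 and less of 2. With 15 of 30 members called (50%), against 39% of all genes, the share was above the background in this fit, and the higher calls (13 members, against 15.7% of all genes called higher) made up most of it, while 23.3% of all genes were called lower. The median log2 fold change of the members was 0.62, against -0.03 over all genes. Of 12 neuron markers 8 were higher and 2 lower, with a median of 0.28. Of 9 epidermis markers 3 were higher and 3 lower, of 8 intestine markers 1 and 2, and of 6 muscle markers 0 and 5. The part of these tissues in the result was not tested. Untreated N2 is the shared reference of this comparison, the next one and the N2 extract response.

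The intestinal agonist ins-7, a gene that DAF-16 represses, had 24.3, 26.2 and 21.9 TPM in untreated old-1, against 11.5, 8.8 and 8.26 TPM in untreated N2. The libraries were far apart (1.51 ± 0.18, adjusted p = 1.55e-05), and the levels in old-1 with extract were 26.7, 18.8 and 23.3 TPM. ins-35 had 82.1, 83.2 and 72.2 TPM in old-1, against 56.2, 31.8 and 28.8 TPM in N2 (1.18 ± 0.18, adjusted p = 0.000121). All 3 old-1 libraries exceeded all 3 N2 libraries for both genes.

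ins-33 had 35, 40.4 and 40.4 TPM in untreated old-1, against 29.8, 21.6 and 27.2 TPM in untreated N2 (0.70 ± 0.14, adjusted p = 0.0011). ins-27 had 202, 205 and 207 TPM in old-1, against 168, 153 and 150.2 TPM in N2 (0.51 ± 0.11, adjusted p = 0.00145). These 4 genes, ins-7, ins-35, ins-33 and ins-27, kept their calls in all 16 alternative fits. daf-28 had 19.7, 17.7 and 18.8 TPM in old-1, against 16.4, 13.5 and 10.7 TPM in N2 (0.63 ± 0.18, adjusted p = 0.0115), again without overlap.

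For the agonist ins-4 and for ins-5, library A of untreated N2 stood apart from B and C. The agonist ins-4 had 11.6, 11.5 and 14.6 TPM in old-1, against 12.8, 5.16 and 4.61 TPM in N2 (0.91 ± 0.27, adjusted p = 0.0127). ins-5 had 12.9, 16.1 and 15.6 TPM in old-1, against 15.3, 6.32 and 3.9 TPM in N2 (0.97 ± 0.30, adjusted p = 0.0168). In both genes N2 library A lay within the old-1 values.

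In the antagonists, too, N2 library A was the nearest to old-1. ins-1 had 7.07, 7.48 and 6.98 TPM in old-1, against 6.24, 3.55 and 3.37 TPM in N2 (0.87 ± 0.18, adjusted p = 0.00125). ins-18 had 12.3, 14.1 and 13.5 TPM in old-1, against 12.2, 8.62 and 5.46 TPM in N2 (0.65 ± 0.21, adjusted p = 0.0198), with N2 library A just under the lowest old-1 library.

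Of members without a stated role, ins-12 had 10.4, 9.22 and 16.1 TPM in old-1, against 5.89, 3.33 and 4.79 TPM in N2 (1.45 ± 0.30, adjusted p = 0.00153). ins-14 had 2.71, 2.62 and 3.04 TPM in old-1, against 1.54, 1.07 and 1.19 TPM in N2 (1.27 ± 0.29, adjusted p = 0.00285). The groups did not overlap for either. ins-17 had 20.8, 19.1 and 18 TPM in old-1, against 20.4, 13.8 and 13 TPM in N2 (0.46 ± 0.14, adjusted p = 0.0133), and ins-30 had 7.21, 7.2 and 6.87 TPM in old-1, against 6.49, 5.75 and 4.98 TPM in N2 (0.46 ± 0.15, adjusted p = 0.0196). N2 library A was within the old-1 range for ins-17 and below it for ins-30. ins-31 had 1 count in old-1, against 166 in N2, a ratio of 167 (95% exact interval 29.6 to 6636, counting error only), all of it from N2 libraries B and C. ins-34 had 0 counts in old-1, against 9 in N2, and was at least 3.02-fold lower.

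With the yolk and oocyte covariate, or without untreated N2 libraries B and C, 5 members were called, all higher (ins-7, ins-27, ins-33, ins-35 and ins-37), with 26.4% and 27.5% of all genes, so that 5 of 30 was below the background in both. ins-37 had 1.87, 1.18 and 1.73 TPM in old-1, against 0.937, 4.06 and 4.95 TPM in N2. It was lower and not called in the main fit (-0.94 ± 0.41, adjusted p = 0.0739), so its sign changed in these alternatives. The calls of ins-30 and ins-18 were lost in 9 and 8 of 16 alternative fits. Without untreated N2 library C alone 9 members were called, with 5144 of all 16850 genes. In a fit of only the 6 untreated old-1 and N2 libraries 8 were called (22.7% of all genes).

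Untreated flor-1 mutants had less ins-33, ins-29, ins-30, ins-35, ins-5, daf-28 and ins-31 than untreated N2 and more ins-37, ins-14 and ins-18. The 10 of 30 members called (33.3%) compare with 40.7% of all genes (20.9% higher and 19.8% lower), and the median log2 fold change was -0.04 over the members and 0.04 over all genes. Tissue markers moved as well, with 5 of 9 epidermis and 5 of 8 intestine markers lower and none higher. Of body wall muscle markers 4 of 6 were lower, and of neuron markers 2 of 12, again with none higher. Their part in the result was not tested. All flor-1 libraries, and no others, had the smaller gap between transcript length and effective length. Genotype and any difference in how these libraries were made or sequenced thus cannot be told apart in this comparison. Transcript length also bears on it. The effective length of member transcripts in flor-1 libraries was 1.5 times that in the other libraries at the median, against 1.09 over all transcripts, so that equal abundance gives more counts of short genes in flor-1. With effective length as an offset, 14 members were called, 3 higher and 11 lower (41.3% of all genes), and the members' median was -0.60, against 0.02 over all genes. ins-27, ins-26, ins-3 and ins-6 joined the genes called lower, and ins-27 changed sign, with a log2 fold change of 0.30 from counts and -0.60 with the offset.

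ins-33 had 5.03, 5.49 and 7.54 TPM in untreated flor-1, against 29.8, 21.6 and 27.2 TPM in untreated N2, with a log2 fold change of -2.16 ± 0.15 (SE, adjusted p = 4.04e-08), and -2.45 with the offset. ins-29 had 4.84, 2.87 and 4.46 TPM in flor-1, against 17.2, 12.3 and 13 TPM in N2 (-1.37 ± 0.27, adjusted p = 0.000627, and -2.14 with the offset). ins-30 had 3.68, 2.97 and 2.88 TPM in flor-1, against 6.49, 5.75 and 4.98 TPM in N2 (-1.03 ± 0.15, adjusted p = 6.01e-05, and -1.19 with the offset). For these 3 genes the groups were far apart, and the calls held in all 16 alternative fits.

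ins-35 had 17.4, 19 and 20.2 TPM in flor-1, against 56.2, 31.8 and 28.8 TPM in N2 (-0.76 ± 0.18, adjusted p = 0.00321, and -1.37 with the offset). daf-28 had 7.89, 10.4 and 9.21 TPM in flor-1, against 16.4, 13.5 and 10.7 TPM in N2 (-0.77 ± 0.19, adjusted p = 0.00322). ins-5 had 4.13, 4.58 and 4.68 TPM in flor-1, against 15.3, 6.32 and 3.9 TPM in N2 (-0.94 ± 0.32, adjusted p = 0.023). All flor-1 libraries were below all N2 libraries for ins-35 and daf-28, while N2 library C was below all flor-1 values for ins-5, and with the yolk and oocyte covariate ins-5 gave 0.03.

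The antagonist ins-18 had 15.3, 18.3 and 16.8 TPM in flor-1, against 12.2, 8.62 and 5.46 TPM in N2 (0.86 ± 0.21, adjusted p = 0.00315). ins-14 had 2.97, 3.28 and 2.93 TPM in flor-1, against 1.54, 1.07 and 1.19 TPM in N2 (1.2 ± 0.29, adjusted p = 0.00297). ins-37 had 9.19, 10.9 and 10.7 TPM in flor-1, against 0.937, 4.06 and 4.95 TPM in N2 (1.31 ± 0.39, adjusted p = 0.0116). The flor-1 libraries were above the N2 libraries in each. With the offset ins-18 gave 0.62, ins-14 0.92 and ins-37 1.26, and each was still called higher. ins-31 had 8, 1 and 10 counts in flor-1, against 0, 59 and 107 counts in N2 (-3.62 ± 1.03, adjusted p = 0.00922). The higher N2 counts were all in libraries B and C. The yolk and oocyte level was higher in flor-1 than in any N2 library, and with it as a covariate ins-33, ins-29, ins-30, ins-14, ins-18 and ins-31 were called as before and ins-1 was called higher (36.5% of all genes). In a fit of only the 6 untreated libraries 6 members were called (27% of all genes).

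**Figure D5:**
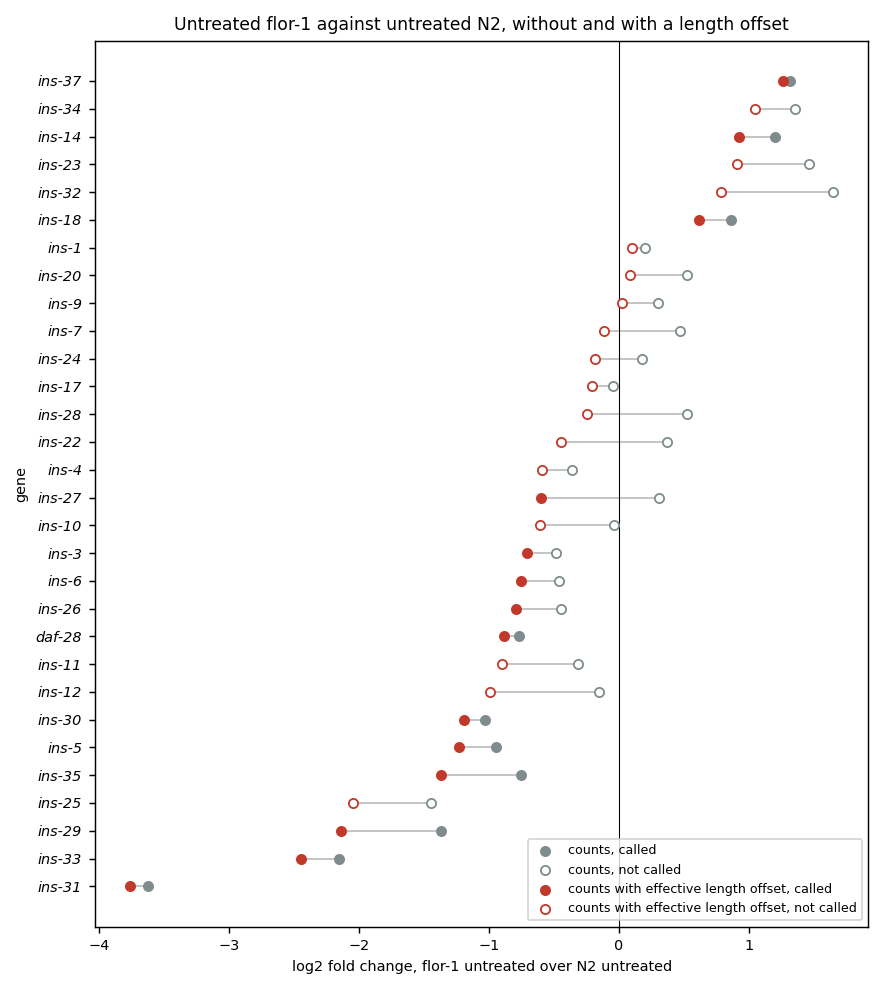
Log2 fold change of the 30 tested members, untreated flor-1 over untreated N2 (horizontal axis), from counts (grey) and from counts with the effective length of each library as an offset (red). Filled points were called. The offset moves all 30 members toward lower values, and 14 are called with it, against 10 without.

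With old-1p::old-1, ins-35 was lower than in the non-transgenic animals and was the 1 member called of 27 tested (3.7%), against 0.117% of all genes (0.0246% called lower). ins-35 had 36.7, 22.3 and 16.3 TPM in old-1p::old-1, against 225, 256 and 176 TPM in the non-transgenic controls. The groups were far apart (-3.35 ± 0.40, adjusted p = 0.0808), but the call was lost when any 1 library other than old-1p::old-1 library A was left out.

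Another 5 members, singled out after their values were seen, had an unadjusted p under 0.05 and were not called. Over all genes, 3126 of 16285 had an unadjusted p under 0.05. ins-7 had 28, 44.2 and 35.4 TPM in old-1p::old-1, against 9.04, 6.6 and 8.87 TPM in the controls, without overlap (1.91 ± 0.31, adjusted p = 0.117). daf-28 had 7.45, 11.9 and 11.2 TPM, against 34, 33.5 and 20.2 TPM in the controls (-1.72 ± 0.34, adjusted p = 0.15). ins-33 had 11.1, 4.56 and 5.85 TPM, against 51.1, 45.7 and 17.9 TPM in the controls (-2.62 ± 0.57, adjusted p = 0.166). For daf-28 and ins-33 all transgenic libraries were below all control libraries. The adjusted p-values of ins-30 and ins-5, both lower, were 0.19 and 0.241.

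The spread within these 2 groups was wide. Epidermis markers stood at a mean log2 CPM of 5.403 to 7.192 in old-1p::old-1, against 7.275 to 7.429 in the controls, and molting genes at 4.447 to 6.409, against 6.6 to 7.285, though none of either list was called, and their part in the result was not tested. Library A of old-1p::old-1 and library C of the controls had lower yolk and oocyte levels than the other 2 of their groups. Without both of them, an alternative chosen after the data were seen, 14 members were called (3 higher and 11 lower), with 45.1% of all genes. DESeq2 called 6 members (ins-7 higher, daf-28, ins-5, ins-30, ins-33 and ins-35 lower) and 8.91% of all genes, and the yolk and oocyte covariate gave 7 members (12% of all genes), the same 6 and ins-37, which was higher.

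With dpy-7p::old-1, ins-5, ins-20, ins-34 and ins-37 were higher than in the hygromycin control and ins-27 and ins-26 lower. These 6 of 30 members called (20%) compare with 45.8% of all genes (24.9% higher and 20.9% lower). The median log2 fold change was -0.20, against -0.09 over all genes. Tissue markers moved in the same comparison, with 6 of 6 body wall muscle, 6 of 8 intestine and 6 of 12 neuron markers lower and none higher, and 3 of 9 epidermis markers lower and 1 higher. Their mean log2 CPM in dpy-7p::old-1, against the control, was 9.798 to 9.903 against 10.59 to 10.62 for muscle, 6.026 to 6.243 against 6.626 to 6.841 for intestine, and 4.485 to 4.695 against 4.748 to 5.112 for neurons, and their part in the result was not tested. ins-27 had 37.4, 39.2 and 68.6 TPM in dpy-7p::old-1, against 92.7, 97.7 and 90.4 TPM in the hygromycin control (-1.06 ± 0.25, adjusted p = 0.00556). ins-26 had 8.21, 8.99 and 8.34 TPM, against 14.4, 12.9 and 10.8 TPM in the control (-0.68 ± 0.21, adjusted p = 0.0209). Both genes lie in the chromosome I cluster, and in both the groups did not overlap.

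ins-5 had 7.84, 5.68 and 12.9 TPM in dpy-7p::old-1, against 2.66, 3.54 and 4.46 TPM in the hygromycin control (1.24 ± 0.37, adjusted p = 0.0166). ins-37 had 9.57, 8.34 and 12.3 TPM, against 3.93, 4.81 and 5.14 TPM in the control (1.03 ± 0.22, adjusted p = 0.00373). The dpy-7p::old-1 libraries were above the control libraries for both.

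The remaining calls were of genes with few counts in the control. ins-20, of the chromosome II cluster, had 38, 10 and 21 counts in dpy-7p::old-1, against 4, 4 and 8 counts in the control (1.97 ± 0.57, adjusted p = 0.0147). ins-34 had 27, 42 and 15 counts, against 10, 1 and 4 counts in the control (2.37 ± 0.61, adjusted p = 0.00883). The groups did not overlap in either gene. Of the genes described with old-1p::old-1, ins-35 had 5.5, 6.16 and 11.6 TPM in dpy-7p::old-1, against 9.33, 7.28 and 4.53 TPM in the control (0.04 ± 0.40, adjusted p = 0.942). ins-7 had 8.05, 14.4 and 19.5 TPM in dpy-7p::old-1, against 13.7, 3.46 and 9.55 TPM in the control (0.65 ± 0.43, adjusted p = 0.223). Neither was called. With the yolk and oocyte covariate, whose levels do not overlap between these 2 groups, no member was called (12.7% of all genes were). Of the alternative fits, 9 of 14 lost the ins-26 call, 6 of 14 that of ins-5, 6 of 13 that of ins-20, 4 of 13 that of ins-34, 3 of 14 that of ins-27 and 1 of 14 that of ins-37. Leaving out dpy-7p::old-1 library 1 gave 2 calls, library 3 gave 3, and leaving out hygromycin control library 2 gave 1. Of all 16141 genes, 5701, 6829 and 7017 were called in these fits.

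Downstream of the peptides, daf-2, the receptor gene, rose with extract in old-1 (0.57 ± 0.10, adjusted p = 0.0008) and in N2 (0.52 ± 0.10, adjusted p = 0.00131) and was not called in flor-1 (0.01 ± 0.10, adjusted p = 1). The difference of its response was called between flor-1 and N2 (-0.51 ± 0.15, adjusted p = 0.0207) and not between old-1 and N2 (0.05 ± 0.15, adjusted p = 0.834). daf-16 was called in none of the 9 comparisons, with log2 fold changes between -0.08 and 0.22. Of the 13 core genes of the pathway, extract was followed by 5 higher and 1 lower in old-1, 0 called in flor-1, and 4 higher and 0 lower in N2, where 2 were higher without untreated N2 libraries B and C. Beside these stand 24% of all genes called in old-1 and 35% in N2, so the share in N2 was near the background. In old-1 they included age-1 (0.30 ± 0.05, adjusted p = 0.000503), and in N2 the kinase genes akt-1 (0.68 ± 0.09, adjusted p = 2.92e-05) and akt-2 (1.27 ± 0.15, adjusted p = 1.86e-05). Without extract, 2 core genes were higher and 4 lower in old-1 than in N2, age-1 among the lower ones (-0.21 ± 0.05, adjusted p = 0.00535), and 4 were higher and 4 lower in flor-1 than in N2, beside 39% and 40.7% of all genes called. With dpy-7p::old-1, 4 were higher and 3 lower than in the hygromycin control (45.8% of all genes), and aap-1, the adaptor subunit that works with AGE-1 (0.96 ± 0.10, adjusted p = 7.92e-05), and age-1 (0.94 ± 0.11, adjusted p = 0.00011) were among the higher ones.

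Among 11 genes for peptide processing and dense core vesicles, 3 were higher and 2 lower in old-1 with extract, and 5 higher and 1 lower in N2 with extract, beside the same 24% and 35% of all genes. In N2 these included ida-1, a dense core vesicle protein (0.86 ± 0.10, adjusted p = 1.38e-05), the convertase gene kpc-1 (0.62 ± 0.08, adjusted p = 4.64e-05) and the carboxypeptidase gene egl-21 (0.47 ± 0.08, adjusted p = 0.000468). Of 12 neuron markers 5 were higher and 0 lower in N2 with extract, and 2 higher and 1 lower in old-1 with extract. Their mean log2 CPM was 5.457, 5.083 and 4.949 in untreated N2 libraries A, B and C, against 5.482 to 5.502 in N2 with extract. Their part in the result was not tested. In dpy-7p::old-1 6 of the 11 were lower than in the hygromycin control and none higher, where 20.9% of all genes and 6 of 12 neuron markers were called lower.

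Of 10 tested genes known to be raised by DAF-16, 1 was higher and 2 lower in old-1 with extract, and 5 were higher and 1 lower in N2 with extract, beside 24% and 35% of all genes called. dod-3 was higher in old-1 (2.25 ± 0.25, adjusted p = 7.44e-06) and in N2 (5.44 ± 0.29, adjusted p = 3.61e-09), while sod-3, the mitochondrial superoxide dismutase, was lower in old-1 (-1.2 ± 0.24, adjusted p = 0.00181). In N2, icl-1, of the glyoxylate cycle (1.9 ± 0.18, adjusted p = 1.69e-06), and the small heat shock gene hsp-12.6 (3.1 ± 0.43, adjusted p = 7.03e-05) were also higher. Of 6 genes known to be lowered by DAF-16, 5 were lower in old-1 with extract, among them dod-17 (-0.90 ± 0.12, adjusted p = 4.76e-05), and in N2 3 were lower and 1 higher. In untreated old-1, 5 raised genes were higher than in untreated N2 and 0 lower, while of the lowered genes 4 were higher and 1 lower, beside 15.7% of all genes called higher and 23.3% lower. In untreated flor-1, 1 raised gene was higher and 3 lower, and 3 lowered genes were higher, among them dod-22 (2.69 ± 0.17, adjusted p = 1.86e-08), beside 20.9% of all genes called higher and 19.8% lower. In dpy-7p::old-1, 5 raised genes were lower and 0 higher, and 5 lowered genes were lower and 1 higher, beside 20.9% of all genes called lower and 24.9% higher. With old-1p::old-1 no gene of the 4 lists was called by edgeR.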

How the data were processed

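RNA-seq of 30 libraries was analysed. The authors aligned reads to the WormBase WS283 transcriptome with kallisto and tested with sleuth. The deposited files hold estimated counts and effective lengths per transcript. Tool versions are not given in the sources used here, nor which libraries were sequenced by which of the 2 providers, so a batch by provider could not be examined. Effective lengths set all flor-1 libraries apart from the others, and the source of this difference is not stated. Estimated counts were summed per gene with the Ensembl release 115 annotation of WBcel235 and rounded, and TPM was computed from counts and effective lengths. Genes were tested by edgeR 4.0.16 (quasi-likelihood, TMM, filterByExpr with a minimum count of 5 and a minimum total of 15) in R 4.3.3, with the 18 libraries of the extract experiment in 1 fit and each overexpression experiment in its own. The fitting code was checked on simulated counts, drawn around 1 mean per gene except for genes changed on purpose. These lacked the split of libraries within groups seen here, so the check does not cover it. Intervals and floors cover counting error only.

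All members are accounted for, with library values for those called in at least 1 comparison of the main fits. Of the other lists, daf-2, daf-16 and up to 3 called genes with the smallest adjusted p per comparison are named. The values of 1 gene of the core list are not reported here. Members and lists were chosen with earlier results of these data known. Alternatives were DESeq2 1.42.0, other size factors and filters, a replicate block, an effective length offset, a yolk and oocyte covariate, only the compared groups, and leaving out libraries. One of them, without library A of old-1p::old-1 and library C of its non-transgenic control, was chosen after the data were seen. No sequences of these genes were used here.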

Additional observations from a re-analysis of the deposited data

Results flagged for a closer look

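The response to extract differed between genotypes, by the edgeR test of the difference itself, for the members given here as log2 differences (mutant response minus N2 response). Between old-1 and N2 these were -1.73 for ins-12, -1.69 for ins-5, -1.47 for ins-4, -1.08 for ins-33, -0.83 for ins-1 and -0.65 for ins-17, all lower in old-1. They were 1.78 for ins-37 and 8.03 for ins-34, the second from 3 and 0 counts in old-1 with and without extract, against 0 and 9 counts in N2. Between flor-1 and N2 the log2 differences were -2.55 for ins-12, -1.32 for ins-5, -1.04 for ins-35 and -0.85 for ins-1. They were 5.77 for ins-31 and 5.56 for ins-34, genes at or near the floor in N2 with extract, so that these fitted values and the 8.03 above are no bounds. Both sets use the same N2 libraries.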

How the results depend on the processing

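Without untreated N2 libraries B and C, counts of members called differed in some comparisons and not in untreated flor-1. They also differed in several comparisons with a yolk and oocyte covariate, and the cause was not tested. With the yolk and oocyte covariate 2 members were called in N2 with extract (14.6% of all genes), 3 in the old-1 minus N2 (19.9%) and 1 in the flor-1 minus N2 (11.8%) difference of responses, 5 in untreated old-1 (26.4%), 7 with old-1p::old-1 (12%) and 0 with dpy-7p::old-1 (12.7%). Without N2 libraries B and C the counts were 3 in N2 with extract, 1 in the flor-1 minus N2 difference and 5 in untreated old-1. In fits of only the compared groups they were 1 in N2 with extract (14.4% of all genes), 5 in old-1 with extract (32.5%), 8 in untreated old-1 (22.7%) and 6 in untreated flor-1 (27%). With old-1p::old-1, an adjusted p under 0.05 gave 0 (9 of all 16285 genes), DESeq2 6 (8.91%), and leaving out its library A and control library C 14 (45.1%).

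Leaving out 1 library at a time gave 6 to 12 calls in N2 with extract, 2 to 3 in old-1 with extract, 0 in flor-1 with extract, 5 to 11 and 3 to 10 in the differences of the old-1 and flor-1 responses from that of N2, 9 to 17 in untreated old-1, 7 to 11 in untreated flor-1, 0 to 6 with old-1p::old-1 and 1 to 5 with dpy-7p::old-1. The number of all genes called moved as well. Of 16850 genes it was 4383 to 7616, 3298 to 3706 and 0 to 1 in N2, old-1 and flor-1 with extract. It was 4335 to 7076 and 2903 to 6214 in the differences, and 5127 to 8198 and 5791 to 7456 in untreated old-1 and flor-1. With old-1p::old-1 it was 0 to 3724 of 16285, and with dpy-7p::old-1 5701 to 7017 of 16141. Without N2 libraries B and C, 1 untreated N2 library remains, assumed to vary like the other groups, and it holds 0 counts of ins-31, so the fitted ins-31 values of that alternative are no bounds and show no reversal. Among the calls of the main fits, fitted signs changed for ins-31, ins-37 and ins-5. In untreated old-1, ins-37 was not called in the main fit (-0.94) and was called higher with the covariate. With the covariate, and without libraries B and C, ins-31 gave 0.93 and 3.72 and ins-37 0.57 and 0.53 in N2 with extract, ins-37 gave -0.53 and -0.17 in the old-1 minus N2 difference, and ins-31 -0.48 and -3.28 in the flor-1 minus N2 difference. Without libraries B and C ins-31 gave 2.01 in untreated old-1 and 5.43 in untreated flor-1, where ins-5 gave 0.0305 with the covariate. Same-numbered libraries were not treated as pairs, since in no comparison were all same-numbered correlations above 0.1. In old-1 with and without extract each library correlated best with its own number, at 0.0291 to 0.0496. Correlations of so few libraries cannot exclude pairing. With the replicate block 0 members were called with old-1p::old-1 (0 of 16285 genes) and 4 with dpy-7p::old-1 (6324 of 16141 genes).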
